A study of Homo sapiens with 6 samples.

Results

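The genes described here are the hydrolases of the lysosome, the proteins of its membrane and the factors that control or address them. A list of 49 such genes was searched in a table of 62754 genes by symbol, and 48 of the 49 had at least 10 counts in 3 or more of the 6 libraries. The exception was GALC, the galactosylceramidase, with 2, 0 and 0 counts in one group and 1, 0 and 1 in the other, so nothing is said of its level beyond these counts. All 48 were among the 19874 genes that were tested. The libraries came from HK-2 cells, an immortalised epithelial line from the human kidney proximal tubule. All cells received Cisplatin, a platinum drug that injures tubular cells, with a dose and duration that the study's methods give and the labels do not. They were transfected either with a negative control siRNA (CP+siNC, 3 libraries) or with an siRNA against NAT10, an RNA cytidine acetyltransferase (CP+siNAT10, 3 libraries). No group without Cisplatin was analysed here, so the comparison addresses how lysosomal transcripts differ with NAT10 knockdown in drug-treated cells, and not what the drug does.

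Lysosomal hydrolases are made in the endoplasmic reticulum, tagged in the Golgi with mannose 6-phosphate and carried to an acidic compartment where they break down protein, glycans, glycosaminoglycans and lipids. Heavily glycosylated membrane proteins such as LAMP1 and LAMP2 line that compartment, and the factors TFEB, TFE3 and MITF bind an E-box element found near many lysosomal genes. Proximal tubule cells take up filtered protein and degrade it in lysosomes, and lysosomal beta-galactosidase, the product of GLB1, underlies the common stain for senescent cells.

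Library totals were 19321665, 21602988 and 19464027 counts in CP+siNC and 20793709, 21531774 and 25192736 in CP+siNAT10. Levels are given as CPM, counts relative to library sizes scaled by TMM. NAT10 itself was at 75.8, 71.4 and 73.2 CPM in CP+siNC and at 41.3, 40.5 and 42.5 CPM in CP+siNAT10. The groups did not overlap, and the log2 fold change was -0.82 ± 0.0426 (SE, edgeR quasi-likelihood test, Benjamini-Hochberg adjusted p = 2.79e-15), so the targeted gene was lower in the group labelled for its knockdown. Of 15 epithelial and proximal tubule markers, 10 were detected at 10 counts in 3 libraries. Their summed level was 2085, 2106 and 2050 CPM in CP+siNC and 2010, 1996 and 2030 CPM in CP+siNAT10, a difference of -3.27% with groups that did not overlap, and KRT8 was the most abundant at a mean of 1452 CPM. Of these markers 3 were called higher, PAX8 the most at 0.59 on the log2 scale, and 3 were called lower, KRT18 the most at -0.36. The tubular uptake receptors LRP2 and CUBN, the brush border enzyme ANPEP, the phosphate transporter SLC34A1 and the cadherin CDH1 were each below 0.4 CPM in every library. Markers of endothelial cells were nearly absent, with 0 of 5 detected at that limit and a summed level of at most 0.514 CPM. Of 6 fibroblast markers 3 were detected, with list sums of 22.2, 23.6 and 21.9 CPM in CP+siNC and 23.4, 30.2 and 24.5 CPM in CP+siNAT10, groups that overlapped. COL1A1 was the most abundant at 12.1 CPM and the only one called, at 0.38 on the log2 scale. Of 5 osteoclast markers, read because CTSK is typical of those cells, 2 were detected. The list summed to 5.15, 6.63 and 5.97 CPM in CP+siNC and to 6.94, 8.28 and 7.69 CPM in CP+siNAT10, so these groups were separate. ACP5 was the most abundant at 3.80 CPM, NFATC1 was called higher at 0.65 on the log2 scale, and CALCR and DCSTAMP had no counts. The part of these markers' differences in the results below was not tested.

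Of the 48 members, 11 were higher in CP+siNAT10 at an adjusted p under 0.05 and 15 were lower, and 22 did not pass the test. The shares were 22.9% higher and 31.2% lower, where 21.8% of all tested genes were called higher and 22.3% lower. Only CTSS and NEU1 passed the test with a change of more than 2-fold, and both were lower. No member was more than 2-fold higher in edgeR or DESeq2, with or without adjustment, since the largest rise was 0.77 on the log2 scale. Across all tested genes 0.951% were higher and 1.38% lower by these limits. When the test asked for a change beyond 1.2-fold (edgeR's glmTreat), 3 members were higher and 8 were lower, or 6.25% and 16.7%, beside 6.64% and 8.01% of all tested genes. All 3 libraries of CP+siNAT10 lay above all 3 of CP+siNC for 15 members and below them for 18, or 31.2% and 37.5%, beside 25.7% of all tested genes in the upward direction and 25.7% in the downward direction. The median log2 fold change of the members was -0.02, and that of all tested genes was 0.01. The median size of the change without its sign was 0.21 for the members and 0.21 for all tested genes. The medians of the members thus lay close to those of all tested genes. The shares of members that were lower were above the background by each of these rules. With a filter at a minimum count of 50, 24.4% of tested members were higher and 35.6% lower, beside 27.3% and 28.1% of all genes. These differences between shares were not tested. With libraries scaled by size only, 13 members were higher and 13 lower (27.1% and 27.1%), beside 25.4% and 19.1% of all tested genes. In bulk RNA, fewer cells of a type and less RNA per cell cannot be told apart.

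**Figure D1:**
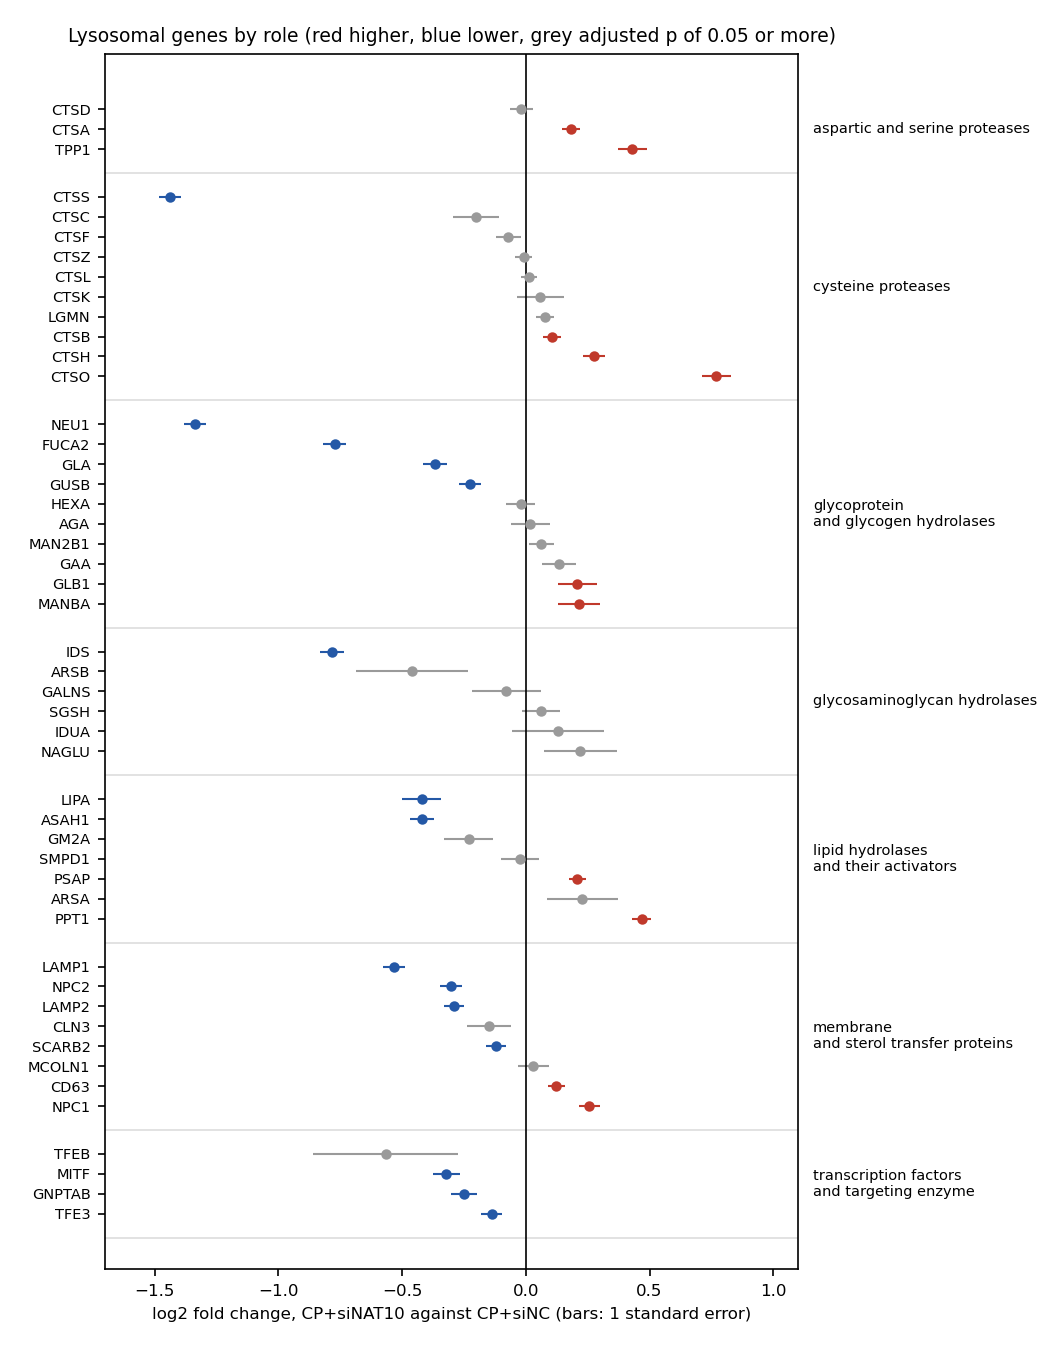
Log2 fold change (CP+siNAT10 against CP+siNC, 3 libraries per group) of the 48 members by role, with bars of 1 standard error. Red and blue points are members called higher (11) and lower (15) by edgeR, and CTSS at -1.44 and NEU1 at -1.34 lie farthest from 0.

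The members were first compared for shared sequence around their start sites, because the E-box element is the best known feature that lysosomal genes have in common. RefSeq promoters (GRCh38.p14, 250 bases before to 50 bases after the start) were matched by symbol for 36 of the 49 listed genes. The hexamer CACGTG, which reads the same on both strands, was in the promoters of 11 of these 36 genes and in those of 8.77% of 27305 genes in the promoter table, counting a gene once if any of its promoters matched. TCACGTG, searched on both strands and containing the hexamer, was in 10 of 36 and in 4.49% of all genes. The full palindrome TCACGTGA, which contains both, was in 6 of 36 and in 1.18% of all genes. The stretches below are shown because these 5 genes hold the element and yet include members called lower (NEU1, LAMP1), called higher (CTSA) and not called (GAA, MCOLN1). Capitals mark the match, all are written 5′ to 3′ on the strand of the gene, and none is shown to be bound in these cells.
NEU1: atgctgcgtgaTCACGTGggaggagatga
LAMP1: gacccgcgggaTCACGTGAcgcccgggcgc
GAA: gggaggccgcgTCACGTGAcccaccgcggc
MCOLN1: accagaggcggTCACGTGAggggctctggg
CTSA: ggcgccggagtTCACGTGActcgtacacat
The NEU1 stretch is at chr6:31862931-31862959 on the minus strand, and its match begins 127 bases before the start. The LAMP1 stretch is at chr13:113297199-113297228 on the plus strand, and its match begins 29 bases before the start. The GAA stretch is at chr17:80101493-80101522 on the plus strand, 77 bases before the start. The MCOLN1 stretch is at chr19:7522571-7522600 on the plus strand, 42 bases before the start. The CTSA stretch is at chr20:45891298-45891327 on the plus strand, 26 bases before the start. The 6 genes with the full palindrome had log2 fold changes of -0.53 for LAMP1, -0.15 for CLN3, -0.08 for GALNS, 0.03 for MCOLN1, 0.14 for GAA and 0.18 for CTSA. Of these only LAMP1 was called lower and only CTSA higher, so carriers of the full palindrome did not all move in one direction. Genes with TCACGTG but not the full palindrome were at -1.34 for NEU1, -0.46 for ARSB, -0.07 for CTSF and -0.02 for CTSD. Of those only NEU1 was called. CD63, with the hexamer alone, was called higher at 0.12. The part of the element in these values was not tested.

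A second feature was read from 3′ UTRs. For each of 11740 tested protein-coding genes other than the members, the longest 3′ UTR annotated in GENCODE 29 (GRCh38) was searched on the transcript strand for all 16384 heptamers. Genes that carry CATATTC (1347 genes), ACTATCA (914 genes) or GACTATC (512 genes) had the lowest mean log2 fold changes relative to their spread, after correction for 3′ UTR length and GC content. The last 2 overlap by 6 bases. At least 1 of the 3 heptamers was present in 19.1% of these other genes and in 6 of the 48 tested members, or 12.5%. A match was in 4 of the 15 lower members (26.7%), in 0 of the 11 higher and in 2 of the 22 that were not called (9.09%), and these small counts were not tested. The matches are shown because NEU1, FUCA2 and IDS, 3 of the 8 members called lower by glmTreat (37.5%), are among them. Of the other genes, 39.2% of those lower and 12.8% of those higher by glmTreat carried a match. The heptamers were picked on these other genes for low values, which affects both shares. Neither share is thus a background for the members, and nothing is concluded from the comparison. Capitals mark the match, and each stretch is 5′ to 3′ on the transcript strand.
NEU1: ccaccatgactGACTATCAatcaaaatgtt
IDS: attgttctggtCATATTCtttatcatgta
FUCA2: taaggctaggaACTATCAggtgtctataa
LAMP2: ttaaacaaaaaACTATCAactacaaatta
GM2A: gaccacctggtGACTATCAggccatgcaga
HEXA: ccactcctgacCATATTCcagacacctgc
These lie in the 3′ UTR at chr6:31859241-31859270 on the minus strand for NEU1, at chrX:149479724-149479752 on the minus strand for IDS and at chr6:143495643-143495671 on the minus strand for FUCA2. The others lie at chrX:120438992-120439020 on the minus strand for LAMP2, at chr5:151269555-151269584 on the plus strand for GM2A and at chr15:72343689-72343717 on the minus strand for HEXA. The 6 carriers had a median log2 fold change of -0.53, from -1.34 for NEU1 to -0.02 for HEXA, and the 42 members without a match had a median of 0.02. No fold change of the other genes is set beside these, since the heptamers were picked on those genes for low values. CTSS, the member with the largest fall, carries none of the 3. The heptamers were ranked on the same libraries, and whether any of them matches the siRNA was not tested, since its sequence is not given in the sources used here.

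**Figure D2:**
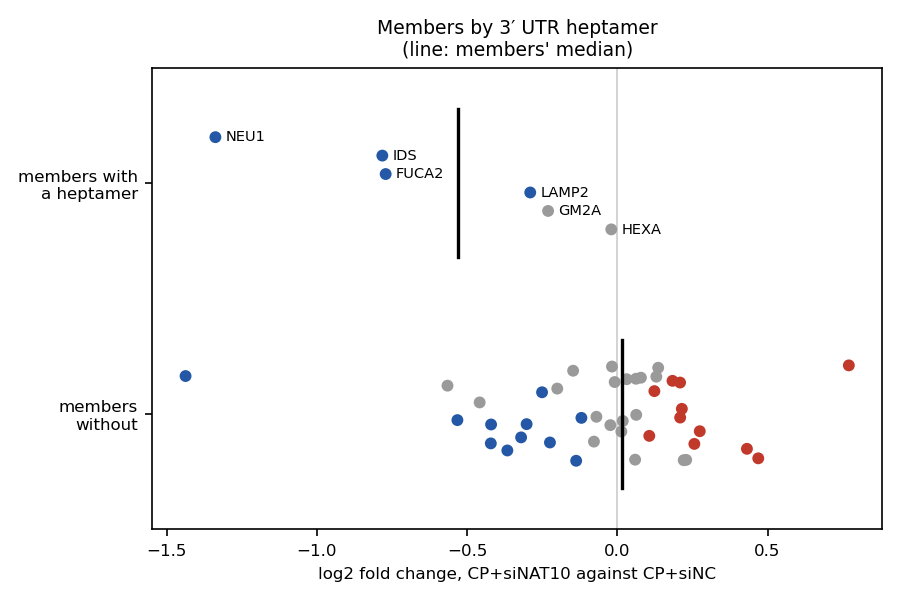
Log2 fold change of the members with (6) and without (42) a match to any of the 3 heptamers in the 3′ UTR, red and blue for members called higher and lower. Lines are the medians, -0.53 and 0.02.

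The proteases that cut protein chains in the lysosome moved in both directions. Among the aspartic and serine proteases 2 of 3 were higher and 1 did not pass. TPP1 (ENSG00000166340, chromosome 11 from 6612768 to 6619429), a serine protease that removes tripeptides from protein ends, was at 20.3, 19.8 and 20.2 CPM in CP+siNC and at 28.2, 25.6 and 27.3 CPM in CP+siNAT10. Every CP+siNAT10 library was above every CP+siNC library. The log2 fold change was 0.43 ± 0.0573 (SE, edgeR adjusted p = 3.95e-07). CTSA, the carboxypeptidase that also protects NEU1 and beta-galactosidase in a complex, was at 97.5, 98.2 and 99.3 CPM in CP+siNC and at 111, 110 and 114 CPM in CP+siNAT10. That rise was small but larger than the spread, at 0.18 on the log2 scale (edgeR adjusted p = 8.95e-05). CTSD, the main aspartic protease, had a log2 fold change of -0.02 ± 0.0471 (SE) and overlapping groups.

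Of 10 cysteine proteases, 3 were higher, 1 was lower and 6 did not pass. The lower one, CTSS (ENSG00000163131, chromosome 1 from 150730079 to 150765789), is an elastin-cleaving cathepsin that stays active near neutral pH and is best known from antigen-presenting cells. Its level was 76.1, 77.9 and 76.0 CPM in CP+siNC and 27.0, 29.5 and 28.4 CPM in CP+siNAT10. The groups were far apart, with each CP+siNAT10 library below 30 CPM and each CP+siNC library above 75 CPM. The log2 fold change was -1.44 ± 0.0449, to 36.9% of the control level (SE, edgeR adjusted p = 4.73e-20). Since CTSS is typical of myeloid cells, markers of those cells were read beside it. Of 10 macrophage and leukocyte markers, 4 were detected at 10 counts in 3 libraries, and their list summed to 5.68, 5.65 and 5.40 CPM in CP+siNC and 5.08, 7.50 and 6.55 CPM in CP+siNAT10. The most abundant was CSF1R at a mean of 3.16 CPM, while TYROBP, CD163 and LYZ were at or near 0. PTPRC alone of the list was called higher, with a log2 fold change of 0.96 (edgeR adjusted p = 0.0411). These 10 markers together were thus far below CTSS in level, and their groups overlapped. CD68, a lysosomal membrane protein that also serves as a macrophage marker, was not on this list but on a related one. It was at 208, 197 and 215 CPM in CP+siNC and at 287, 264 and 267 CPM in CP+siNAT10, above CTSS in level and with separate groups in the direction opposite to CTSS. The part of such cells in the fall of CTSS was not tested.

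CTSO (ENSG00000256043, chromosome 4 from 155921580 to 155953866), a little studied cathepsin, showed the largest rise of all members. It was at 19.2, 19.8 and 18.9 CPM in CP+siNC and at 31.7, 31.4 and 35.4 CPM in CP+siNAT10. The groups did not overlap, and the log2 fold change was 0.77 ± 0.0587, or 1.71-fold (SE, edgeR adjusted p = 1.12e-11). CTSH, an aminopeptidase, rose by 0.27 on the log2 scale (edgeR adjusted p = 8.59e-06, higher in 3 of 3 libraries). CTSB, an abundant cathepsin with carboxypeptidase activity, was 0.11 higher on the log2 scale (edgeR adjusted p = 0.019). That call was lost in DESeq2 (adjusted p = 0.0728) and when replicate 2 of CP+siNC (0.095) or replicate 3 of CP+siNAT10 (0.0965) was left out. CTSL, a major endopeptidase, was at 456, 441 and 441 CPM in CP+siNC and at 450, 439 and 461 CPM in CP+siNAT10. Its groups overlapped, and its log2 fold change was 0.01 ± 0.0328 (SE, edgeR adjusted p = 0.781). The others that did not pass were CTSZ at -0.01, CTSK at 0.06, CTSF at -0.07, LGMN at 0.08 and CTSC at -0.20 on the log2 scale.

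**Figure D3:**
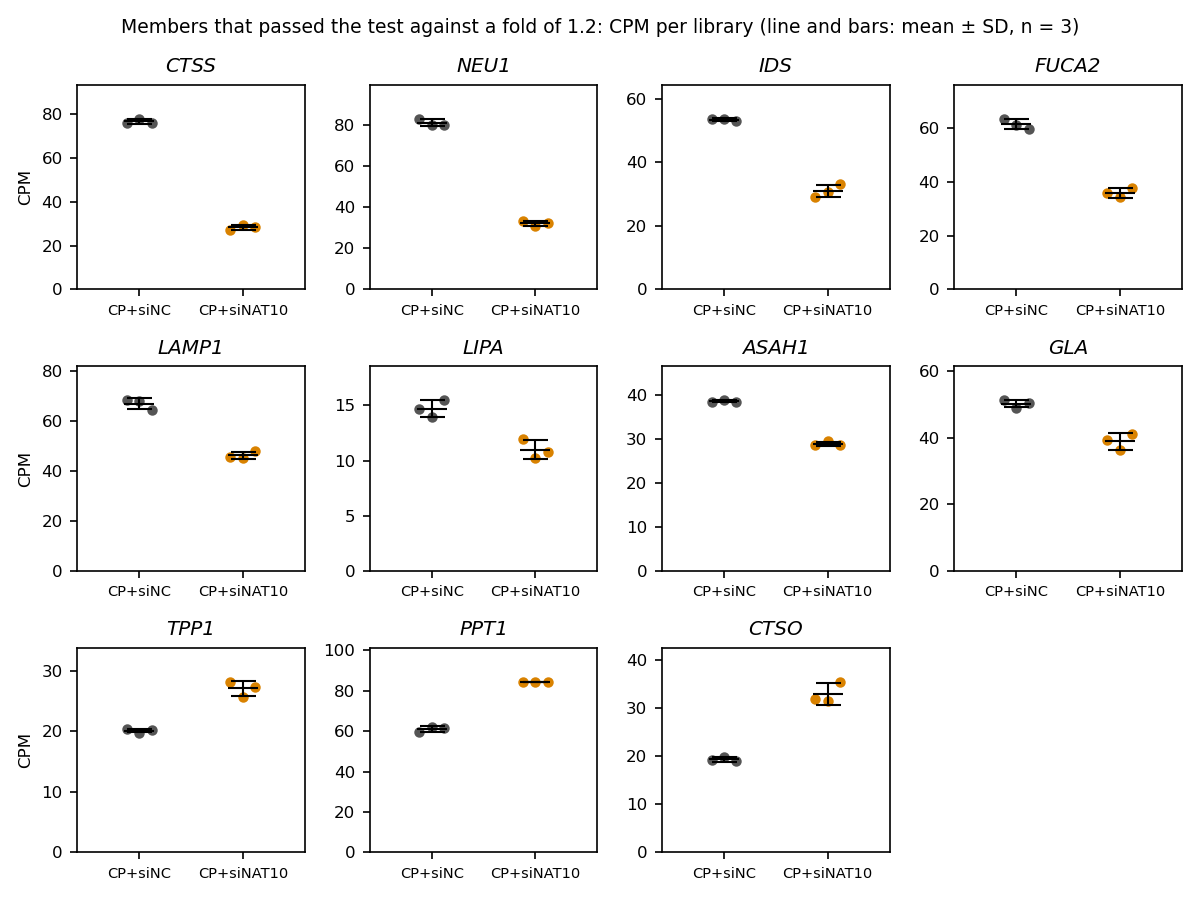
CPM per library of the 11 members that passed the test against 1.2-fold, from axes that start at 0, with the mean and SD of 3 libraries per group. The groups are separate in each panel, as for CTSS, with 76.0 to 77.9 CPM in CP+siNC and 27.0 to 29.5 CPM in CP+siNAT10.

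Of the 10 members grouped as hydrolases of glycoproteins and glycogen, 2 were higher, 4 were lower and 4 did not pass. The groups by role share no members, so their counts do not cover every enzyme that acts on a substrate. This holds for GLA, GUSB and HEXA, which were counted only here. NEU1 (ENSG00000204386, chromosome 6 from 31857659 to 31862822) is the sialidase that removes terminal sialic acid, and carries the E-box and the 3′ UTR match shown above. It was at 82.9, 79.9 and 79.9 CPM in CP+siNC and at 33.2, 30.6 and 32.2 CPM in CP+siNAT10. The libraries of each group lay close together and the groups were far apart. The log2 fold change was -1.34 ± 0.044, to 39.6% of the control level (SE, edgeR adjusted p = 1.7e-19). Its partners in the multienzyme complex, CTSA and GLB1, were not lower.

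FUCA2 (ENSG00000001036, chromosome 6 from 143494812 to 143511690), a fucosidase that is also secreted, was at 63.6, 61.3 and 59.9 CPM in CP+siNC and at 35.8, 34.3 and 38.0 CPM in CP+siNAT10. All CP+siNAT10 libraries were lower, and the log2 fold change was -0.77 ± 0.0465 (SE, edgeR adjusted p = 8.67e-14). GLA, the alpha-galactosidase that is deficient in Fabry disease, was at 51.2, 48.9 and 50.4 CPM in CP+siNC and at 39.3, 36.2 and 41.0 CPM in CP+siNAT10. The groups did not overlap, but the fall of 0.37 on the log2 scale (edgeR adjusted p = 3.79e-07) was only just past the test against 1.2-fold (adjusted p = 0.0385 by glmTreat). GUSB, the beta-glucuronidase, was 0.22 lower on the log2 scale (edgeR adjusted p = 0.000124, lower in 3 of 3 libraries), a value that is uncertain because several pseudogene copies of it could share its reads.

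GLB1, the beta-galactosidase, was at 10.1, 11.5 and 11.2 CPM in CP+siNC and at 12.4, 12.9 and 12.6 CPM in CP+siNAT10. All CP+siNAT10 libraries were above the controls, by 0.21 on the log2 scale with a standard error of 0.0786 (edgeR adjusted p = 0.0318). The call was lost in 5 of 14 alternatives, which were DESeq2 (adjusted p = 0.147) and edgeR on 5 libraries. The edgeR adjusted p was 0.167 with replicate 1 of CP+siNC left out, 0.052 with its replicate 3 left out, 0.0802 with replicate 2 of CP+siNAT10 left out and 0.0613 with its replicate 3 left out. MANBA, the beta-mannosidase, was also 0.21 higher (edgeR adjusted p = 0.0406), and its call was lost in 6 alternatives. These were DESeq2 (adjusted p = 0.171), edgeR with no filter on low counts (0.061) and edgeR with replicate 1 (0.0878) or 3 (0.194) of CP+siNC or replicate 2 (0.0942) or 3 (0.0888) of CP+siNAT10 left out. GAA at 0.14, MAN2B1 at 0.06, AGA at 0.02 and HEXA at -0.02 on the log2 scale did not pass.

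Of the 6 members grouped as hydrolases of glycosaminoglycans 1 was lower and 5 did not pass, among them ARSB, IDUA and NAGLU with few counts. GUSB, given above, was not counted in this group. IDS (ENSG00000010404, chromosome X from 149476988 to 149521096) removes sulfate from dermatan and heparan sulfate and is deficient in Hunter syndrome. It was at 53.6, 53.7 and 52.8 CPM in CP+siNC and at 29.1, 30.7 and 33.1 CPM in CP+siNAT10. The groups were separate, and the log2 fold change was -0.78 ± 0.0489 (SE, edgeR adjusted p = 1.74e-13). IDS has a pseudogene copy nearby and shares 17.4% of its exonic bases with other genes on the same strand, so its reads are uncertain in origin. One gene of the table that overlaps it, ENSG00000241489, had 883, 992 and 899 counts in CP+siNC and 547, 564 and 715 in CP+siNAT10, a log2 fold change of -0.80. The share of reads that the pair has in common was not tested. SGSH at 0.06, IDUA at 0.13, GALNS at -0.08, NAGLU at 0.22 and ARSB at -0.46 did not pass, and ARSB had as few as 24 counts in a library and a standard error of 0.226. It was called in 2 of 13 alternatives that tested it, at -0.61 with replicate 3 of CP+siNC left out (adjusted p = 0.0369) and at -0.69 with replicate 2 of CP+siNAT10 left out (0.0317).

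Of 8 listed lipid hydrolases and activators 7 were tested, and 2 were higher, 2 were lower and 3 did not pass. PPT1 (ENSG00000131238, chromosome 1 from 40072710 to 40097242), a thioesterase that removes palmitate from proteins, was at 59.3, 61.9 and 61.4 CPM in CP+siNC and at 84.5, 84.4 and 84.1 CPM in CP+siNAT10. The groups were separate and the CP+siNAT10 libraries nearly equal. The log2 fold change was 0.47 ± 0.0385 (SE, edgeR adjusted p = 5.02e-11). TPP1 and PPT1, whose loss causes related forms of neuronal ceroid lipofuscinosis, thus both rose, while CLN3 and CTSD, which belong to the same disease group, had log2 fold changes of -0.15 and -0.02 and did not pass.

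PSAP, the precursor of the saposins that present sphingolipids to hydrolases, was at 616, 641 and 623 CPM in CP+siNC and at 707, 729 and 737 CPM in CP+siNAT10. All CP+siNAT10 libraries were higher, by 0.21 on the log2 scale with a standard error of 0.0328 (edgeR adjusted p = 5.55e-06). ASAH1, the acid ceramidase, was at 38.5, 38.8 and 38.4 CPM in CP+siNC and at 28.6, 29.5 and 28.5 CPM in CP+siNAT10. The groups did not overlap, and the log2 fold change was -0.42 ± 0.0479 (SE, edgeR adjusted p = 2.77e-08). So the activator precursor rose while a ceramidase that depends on saposins fell.

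LIPA, the acid lipase for cholesteryl esters and triglycerides, was at 14.7, 13.9 and 15.5 CPM in CP+siNC and at 11.9, 10.3 and 10.8 CPM in CP+siNAT10. The groups were separate, the log2 fold change was -0.42 ± 0.0784 (SE, edgeR adjusted p = 5.96e-05), and the test against 1.2-fold was only just passed (adjusted p = 0.0474 by glmTreat). In the table the span of LIPA, chromosome 10 from 89213569 to 89414557, also holds IFIT1, IFIT2 and IFIT3 on the other strand, which were looked up after the values were seen. Their log2 fold changes were -1.37, -1.46 and -1.34. LIPA shares 4.07% of its exonic bases in GENCODE 29 with genes on that strand, and the part of their reads in its counts was not tested. ARSA at 0.23, SMPD1 at -0.02 and GM2A at -0.23 did not pass.

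Of the 8 membrane and sterol transfer proteins, 2 were higher, 4 were lower and 2 did not pass. LAMP1 (ENSG00000185896, chromosome 13 from 113297239 to 113323672), a major glycoprotein of the lysosomal membrane, was at 68.3, 67.9 and 64.5 CPM in CP+siNC and at 45.7, 45.1 and 47.9 CPM in CP+siNAT10. The groups were separate, and the log2 fold change was -0.53 ± 0.043 (SE, edgeR adjusted p = 3.52e-11). LAMP2, its partner and the receptor for chaperone-mediated autophagy, was 0.29 lower (edgeR adjusted p = 6.6e-07, lower in 3 of 3 libraries). CD63, a tetraspanin, was at 379, 395 and 362 CPM in CP+siNC and at 412, 403 and 422 CPM in CP+siNAT10. Here the groups were separate in the other direction, by 0.12 on the log2 scale with a standard error of 0.0348 (edgeR adjusted p = 0.00472), but the call was lost with replicate 3 of CP+siNC left out (adjusted p = 0.0637).

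The sterol transfer pair moved apart. NPC2, the soluble protein that binds cholesterol in the lumen, fell by 0.30 on the log2 scale (edgeR adjusted p = 1.28e-06, lower in 3 of 3 libraries), from 74.1 ± 2.69 to 60.0 ± 2.97 CPM (SD, n = 3 libraries, edgeR). NPC1, the membrane protein that receives it, rose by 0.26 (edgeR adjusted p = 1.34e-05, higher in 3 of 3 libraries), from 46.0 ± 1.05 to 55.0 ± 0.742 CPM. SCARB2, the receptor that carries glucocerebrosidase, was 0.12 lower (edgeR adjusted p = 0.018). Its call was lost in 5 alternatives, which were library size scaling (adjusted p = 0.112), no filter on low counts (0.0537), DESeq2 (0.0576) and leaving out replicate 2 of CP+siNC (0.129) or of CP+siNAT10 (0.0794). The calcium channel MCOLN1 at 0.03 and CLN3 at -0.15 did not pass.

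The transcription factors of the lysosomal genes and the enzyme that starts the mannose 6-phosphate tag, GNPTAB, all had fitted values below 0. Of these 4, 3 were called lower (75%), beside 22.3% of all tested genes, and 0 passed the test against 1.2-fold. MITF was at 29.5, 30.1 and 30.2 CPM in CP+siNC and at 22.9, 24.5 and 24.4 CPM in CP+siNAT10. Its groups were separate, and the log2 fold change was -0.32 ± 0.0529 (SE, edgeR adjusted p = 1.18e-05). TFE3 was at 50.4, 50.4 and 51.3 CPM in CP+siNC and at 46.4, 46.2 and 45.7 CPM in CP+siNAT10. The groups were separate, and the difference of -0.14 ± 0.0426 (SE, edgeR adjusted p = 0.00969) lost its call when libraries were scaled by size only (adjusted p = 0.0639). TFEB was at 0.903, 1.21 and 0.727 CPM in CP+siNC and at 0.713, 0.641 and 0.592 CPM in CP+siNAT10. These values come from 14 to 26 counts per library. Although the groups did not overlap, the log2 fold change of -0.57 ± 0.293 (SE) did not pass (edgeR adjusted p = 0.122), so no change in TFEB was called. With a library left out its value ranged from -0.73 to -0.34. GNPTAB fell by 0.25 (edgeR adjusted p = 0.000271, lower in 3 of 3 libraries).

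Levels of different genes were compared per kilobase of the gene length in the table. PSAP was highest at 217 CPM per kb, followed by CD63 at 163, CTSL at 73.3, LGMN at 28.5 and NPC2 at 26.0. The lowest were CTSC at 0.336, ARSB at 0.176 and TFEB at 0.119 CPM per kb. TFE3 at 11.5 and MITF at 3.63 CPM per kb were thus far above their relative TFEB in these cells. The lengths are unions of all annotated exons and can exceed the transcripts that are made, as for CTSZ, whose 19384 bases in the table are 9.51 times its 2038 exonic bases in GENCODE 29. On the latter lengths PSAP stayed highest at 209 CPM per kb, CTSL was at 189, CTSZ rose from rank 8 to rank 3 at 164 and CD63 was at 150. The order below PSAP therefore depends on the length used, and the differences between groups do not.

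**Figure D4:**
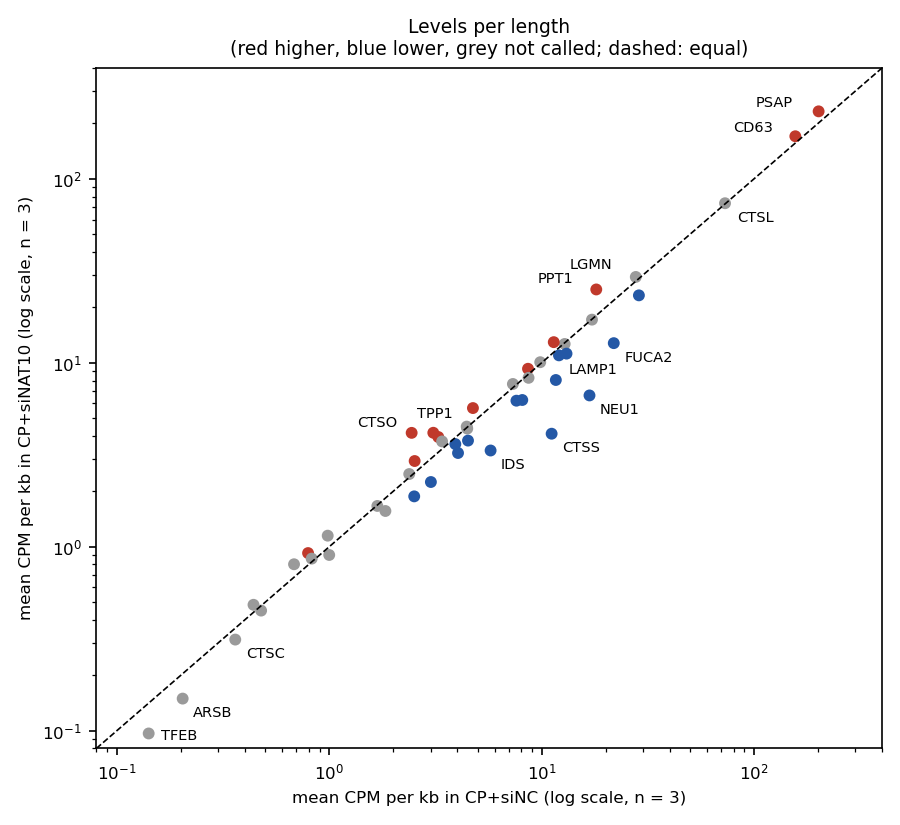
Mean CPM per kb of the 48 members in CP+siNC (x axis) and CP+siNAT10 (y axis), both on log scales, with 3 libraries per group. Most points lie near the line of equal levels over the range from TFEB at 0.119 to PSAP at 217, and CTSS and NEU1 lie clearly below it.

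Reads of all 49 listed genes together made up 3432, 3520 and 3435 CPM in CP+siNC and 3403, 3393 and 3513 CPM in CP+siNAT10. The groups overlapped, and the mean differed by -0.748%. The balance within the sum was different. The 5 members with most reads, PSAP, CTSL, CD63, CTSZ and LGMN, summed to 1886, 1930 and 1863 CPM in CP+siNC and to 2010, 2002 and 2084 CPM in CP+siNAT10, a difference of 7.36%. The other 44 summed to 1546, 1590 and 1573 CPM in CP+siNC and to 1394, 1391 and 1429 CPM in CP+siNAT10, a difference of -10.5%. Neither pair of groups overlapped. The share of the 5 in the sum went from 54.7% to 59.1%. Most of this rise was in PSAP and CD63, while CTSL, CTSZ and LGMN were not called. This split was chosen after the values were seen, so it is a description without a test.

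Other genes of the lysosomal system were read from 7 lists with 169 genes, of which 150 were tested. Of these, 38 were higher and 38 were lower (25.3% and 25.3%), beside 21.8% and 22.3% of all tested genes. Of 21 tested subunits of the proton pump (V-ATPase), which acidifies the lumen, 3 were higher (14.3%) and 8 were lower (38.1%), with a median log2 fold change of -0.13. The largest called changes among subunits with a mean of at least 5 CPM were in ATP6V1G2 at -0.99, ATP6V1F at -0.70 and ATP6V1C1 at -0.45. ATP6V1F was at 388, 350 and 373 CPM in CP+siNC and at 255, 232 and 198 CPM in CP+siNAT10, so the groups were separate. Below that level, ATP6V1E2 at a mean of 4.67 CPM had the largest change of all subunits and in the other direction, at 1.06 (edgeR adjusted p = 4.93e-08), and no other related gene was called more than 2-fold higher. Of 32 further hydrolases and cofactors, 3 were higher (9.38%) and 14 were lower (43.8%), with a median of -0.16, and by glmTreat 1 was higher and 9 were lower. PCYOX1, which oxidises prenylcysteine, was at -1.33, the heparanase HPSE at -0.88 and FUCA1, the lysosomal counterpart of FUCA2, at -0.77 on the log2 scale. Both fucosidases were thus lower.

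Of 34 other lysosomal membrane proteins and transporters, 9 were higher (26.5%) and 6 were lower (17.6%), and of 21 genes that sort hydrolases to lysosomes 8 were higher (38.1%) and 5 were lower (23.8%). IGF2R, the large receptor for the mannose 6-phosphate tag, rose by 0.42 on the log2 scale, where GNPTAB, which starts the tag, fell. In the same sorting list GNPTG was called higher at 0.14 (edgeR adjusted p = 0.028), and M6PR at 0.03 did not pass. The sorting receptor SORT1 fell by 0.42 and the retromer subunit VPS29 by 0.38. Among membrane proteins PLD3 was at 0.58, CD68 at 0.40 and PIP4P2 at -0.57. Of 19 genes of nutrient signalling at the lysosome 7 were higher (36.8%) and 2 were lower (10.5%). The kinase MTOR rose by 0.56 and FNIP2 by 0.78, while LAMTOR5, a subunit of the scaffold that recruits the kinase complex, was at -1.41, or 37.7% of the control level. Of 21 genes of late endosome and lysosome fusion 8 were higher (38.1%) and 3 were lower (14.3%), among them VPS41 at 0.49, PLEKHM1 at 0.41 and PIKFYVE at -0.53. Of 8 cystatins, inhibitors of cysteine cathepsins, only 2 were tested, with log2 fold changes of -0.04 and -0.01 that did not pass.

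**Figure D5:**
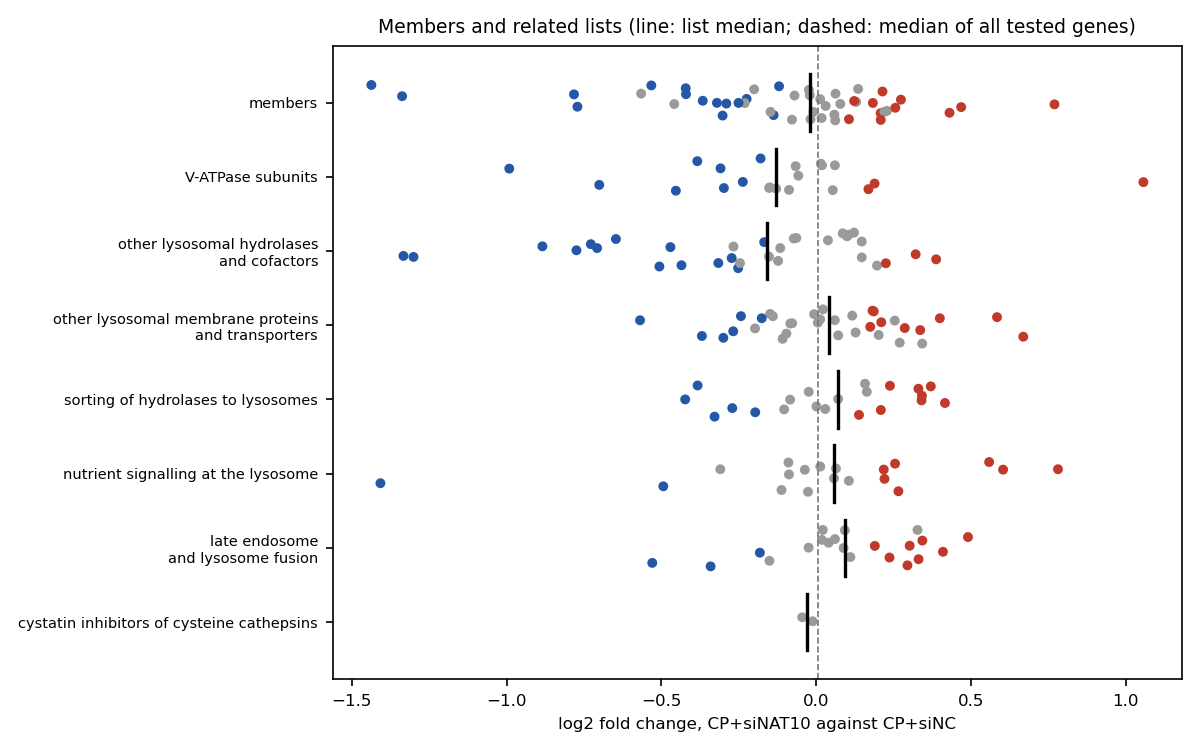
Log2 fold change of each tested member and of each tested gene in the 7 related lists, red and blue for genes called higher and lower by edgeR. Solid lines are list medians, from -0.16 for further hydrolases to 0.09 for fusion genes, and the dashed line is the median of all tested genes, 0.01.

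Some members share their place with other genes, and whether the counting used strand is not given in the sources used here. FUCA2 shares 16.9% of its exonic bases in GENCODE 29 with genes on the other strand, and VDAC1P8 and ENSG00000278206, which overlap it in the table, had log2 fold changes of -0.62 and -0.75. TPP1 is overlapped on the other strand by ENSG00000255680, at 0.46, and CD63 by CD63-AS1, at 0.33. ASAH1-AS1, at -0.73, and ISCA2, at -0.32, lie on the other strand of ASAH1 and NPC2. In these the overlapping gene had the sign of the member, but this was not so for all members. On the other strand of CTSA, which was higher, PLTP was at -0.43 while NEURL2 was at 0.28 and ENSG00000271984 at 0.16. On that of SGSH, CARD14 was at -0.45 and SLC26A11 at 0.05. On the same strand, ENSG00000269590 was at -0.36 beside MAN2B1 at 0.06, and TMPPE at -0.20 beside GLB1. CTSD shares 41.7% of its exonic bases with other genes on the same strand, CLN3 25.2%, MAN2B1 21.2%, NAGLU 12.6% and TPP1 11.6%, and PPT1 shares 23.4% and CTSA 28.5% with genes on the other strand. No tested gene of the table overlaps the spans of CTSS, NEU1, CTSO or LAMP1 on either strand, and they share no exonic bases in GENCODE 29. GLA shares none there either, but its length in the table is 6195 bases against 2275, and its span is overlapped on the other strand by RPL36A-HNRNPH2 and RPL36A. Those had at least 14392 counts in every library and log2 fold changes of -0.25 and -0.25, the sign of GLA. The overlapping genes were looked up after the values were seen, and the part of shared reads in these values was not tested.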

How the data were processed

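RNA of 6 samples was sequenced, 3 in each group, and group and replicate number were taken from the labels, which do not say that replicates were separate cultures, so p-values measure only the spread between these samples. The authors deposited raw counts per gene. Their processing notes name Trimmomatic 0.36, STAR 2.5.3a, featureCounts (Subread 1.5.1), edgeR 3.12.1 and GRCh38, and the study's methods name a stranded kit with molecular identifiers meant for removing duplicates, but do not say if copies were collapsed before these counts, so errors and tests treat each read as a separate molecule. The table holds 0 columns of unmapped samples.

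From these counts, filterByExpr with a minimum count of 10 and a minimum total of 15 retained 19874 of the 62754 genes and no less than 99.8% of each library's counts. Libraries were scaled by TMM and compared with edgeR 4.0.16 (limma 3.58.1, R 4.3.3) by its quasi-likelihood test (glmQLFit, glmQLFTest, and glmTreat against 1.2-fold), with Benjamini-Hochberg adjustment over all tested genes. Genes were called at an adjusted p under 0.05, the biological coefficient of variation was 3%, and with 3 against 3 no exact permutation p can be below 0.1. Pairs of replicates differed by more than counting noise (chi-square per gene 1.74 to 2.55 within groups and 18.6 to 23.0 across groups), so none were merged. Steps were tested on simulated data, from which no value is given here.

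The members, lists and the heptamer comparison were chosen with earlier results of these data known. Any member could be named. Values per library are given for members that passed glmTreat, for TFEB, TFE3, MITF and GLB1, for the 3 highest per length, and for a few more. In each related list the 3 called genes with the largest change and a mean of at least 5 CPM were named. A gene of these lists was left out after the analysis, for a reason other than its values, and is not reported here, so a count of its list can differ by 1. Alternatives were library size, RLE and upper quartile scaling, 3 other filters, DESeq2 1.42.0, a replicate block and leaving out each library.

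Promoters came from RefSeq on GRCh38.p14, and 3′ UTRs, exons and transcript sequence from GENCODE 29, which shares 58261 gene identifiers with the table, 99.83% of them at overlapping positions. Heptamers were ranked on genes whose mean reached 2 CPM and whose 3′ UTR had 50 bases or more. Python 3.11.15, numpy 2.4.6, pandas 2.3.3 and matplotlib 3.10.9 were used.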

Additional observations from a re-analysis of the deposited data

How the results depend on the processing

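Of 26 called members 20 were called with the same sign in all 14 alternatives, among them all 11 that passed the test against 1.2-fold, and 6 lost their call in at least 1 (CTSB, GLB1, MANBA, CD63, SCARB2 and TFE3, values beside each result). Of the 22 members not called, 5 were called in at least 1 alternative (CTSC, LGMN, GAA, ARSB and GM2A). None of the called members changed sign. The 18 related genes named by the rule on level and change kept their call and sign. With library size scaling 3 members were higher and 6 lower by glmTreat (6.25% and 12.5%), beside 8.26% and 6.77% of all genes, and the members' median log2 fold change was 0.0186 in place of -0.0191, and that of all genes was then 0.0444 in place of 0.007, so the members' median stayed below it. With that scaling CTSD was at 0.0195, CTSZ at 0.0288, HEXA at 0.0176 and SMPD1 at 0.0141, against values just below 0, and with no filter CTSZ was at 0.0024. Leaving out 1 library at a time moved 8 members that had not passed the test across 0. Their log2 fold changes then ranged from -0.0683 to 0.0423 for CTSD, from -0.004 to 0.0327 for CTSL, from -0.0385 to 0.0154 for CTSZ, from -0.0541 to 0.0482 for HEXA, from -0.1649 to 0.0502 for GALNS, from -0.0509 to 0.0291 for SMPD1, from -0.0395 to 0.05 for AGA and from -0.0707 to 0.1331 for MCOLN1. Some members that had not passed moved without a change of sign. SGSH then ranged from 0.0069 to 0.1502, IDUA from 0.0803 to 0.2034 and NAGLU from 0.1297 to 0.2724. The range was 0.0202 to 0.111 for MAN2B1, 0.0733 to 0.1947 for GAA and 0.1269 to 0.3069 for ARSA. The cause of these moves was not tested. With a library left out, 8 to 11 members were higher, 14 to 16 were lower and 6 to 8 were lower by glmTreat. The shares of all genes were then 18.6% to 19.7% higher, 19.5% to 20.5% lower and 6.9% to 7.41% lower by glmTreat. The members' median log2 fold change ranged from -0.0427 to 0 in these fits, and that of all genes from 0.0027 to 0.0063. DESeq2 called 8 members higher and 14 lower (16.7% and 29.2%), beside 16.2% and 17.3% of all genes. Samples with the same number did not deviate together (correlations of -0.04, 0.01 and -0.14), but 3 samples per group cannot exclude pairing by number. With a replicate block 11 members were higher and 15 lower and NAT10 was at -0.83. Added after the data were seen, ranking heptamers without the correction for length and GC content gave the same 3, and the carriers' median was between -0.56 and -0.49 in all 14 alternatives. TFEB, ARSB, IDUA and NAGLU had the fewest counts, and the part of depth in their missing calls was not tested.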
